A study of Homo sapiens with 9 samples.

Results

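The 8 genes described here sense cellular sterol and set how much cholesterol enters, moves within and leaves a cell. They were chosen by name, with earlier results of these data known. They were *INSIG1*, *INSIG2*, *SCAP*, *SREBF1* and *SREBF2*, which form the sterol sensor and its transcription factors, *STARD4*, which carries cholesterol between membranes, *MYLIP*, which limits lipoprotein uptake, and *ABCA1*, which exports cholesterol. All 8 were found among the 60664 genes listed, and all 8 were among the 18264 genes that passed a filter on low counts and were tested. Their levels were followed in MDA-MB-231 cells, an established human line of triple-negative breast cancer, by poly(A) RNA sequencing of 9 samples on day 6. The samples fell into 3 groups of 3. The first was scramble control (SC) cells kept in medium of 0.77 cP, the viscosity of ordinary culture medium. The second was SC cells kept in medium of 8 cP, and the third was cells kept at 8 cP that stably carried a short hairpin RNA against the ion channel gene *TRPV4* from a lentiviral vector (shTRPV4). Viscosity was raised with methylcellulose, so that this polymer and the higher viscosity cannot be told apart. Every group was grown with serum, a source of lipoproteins. SC cells carried a scrambled hairpin in place of the one against *TRPV4*. A group of shTRPV4 cells at 0.77 cP is not analysed here, so the knockdown was seen at 8 cP only. The study describes its experiments in general as independent biological replicas but does not say so for the RNA samples in particular, and p-values measure the spread between these samples, which may be technical.

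Cells hold cholesterol within narrow limits by a feedback loop in the endoplasmic reticulum. SCAP escorts the membrane-bound transcription factors SREBP-1 and SREBP-2, products of *SREBF1* and *SREBF2*, towards the Golgi, where they are cut and released to the nucleus. When sterols are plentiful the INSIG proteins hold the SCAP-SREBP complex back, and genes of sterol synthesis and lipoprotein uptake are less transcribed. *INSIG1* and *SREBF2* are themselves targets of SREBP-2. In the opposite branch, oxysterols activate the liver X receptors (LXR), nuclear receptors that are known to raise *ABCA1*, *MYLIP* and *SREBF1*. These are known relations and were not measured here.

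The start regions of the 8 genes are shown because the known control of these genes runs through short DNA elements there. The windows, from 250 bases before to 50 bases after each RefSeq start site (GRCh38.p14), were searched on both strands for the sterol regulatory element core TCACNCCAC, for a looser form TCANNCCAN that also takes every match of the core, and for the E-box CACGTG. The fourth motif, GGTNAN and GGTCA set 4 bases apart, a direct repeat of the kind LXR binds, was written after the *ABCA1* sequence had been seen. The letters found are in capitals with flanking bases in lower case, 5′ to 3′ on the strand of the gene. Distances are those of the first capital letter from the RefSeq start site. The gene spans given further below are from GENCODE and can begin upstream of that site. The E-boxes of *SCAP* and *INSIG1* lie inside those spans, and the looser element of *INSIG1* overlaps the edge of its span.
*SREBF2*, core element 133 bases before the start, chr22:41832962-41832990, plus strand: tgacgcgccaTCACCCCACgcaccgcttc
*INSIG1*, looser element 108 bases before the start, chr7:155297760-155297788, plus strand: cggggcaagcTCAGGCCACgcccctgggc
*STARD4*, looser element 180 bases before the start, chr5:111512697-111512725, minus strand: ccacgcggaaTCATTCCATttatcggcca
*INSIG1*, E-box 55 bases before the start, chr7:155297813-155297838, plus strand: cgggcaggctCACGTGatgcgggccc
*SCAP*, E-box 58 bases before the start, chr3:47475984-47476009, minus strand: ccgctgggcgCACGTGcggagggcgg
*ABCA1*, E-box 147 bases before the start, chr9:104928287-104928312, minus strand: gccccggctcCACGTGctttctgctg
*ABCA1*, direct repeat read on the opposite strand, 69 bases before the start, chr9:104928203-104928231, minus strand: caggcttTGACCGATAGTAACCtctgcgc
Of the 8 genes, 1 held the core element, against 1.13% of 35116 promoters, and 3 held the looser form, against 13.8%. Among the sterol synthesis genes listed further below, 15 had a window, of which 0 held the core and 2 the looser form. Among the fatty acid genes listed there, 11 had a window, of which 1 held the core and 5 the looser form. The E-box was found in 3 genes, against 7.26% of promoters. The direct repeat was found in 1 gene, *ABCA1*, and in 0.239% of promoters. Its match in *ABCA1* was known when the motif was written, so this share cannot serve as a background for it. No match to any of these motifs lay in the windows of *INSIG2*, *SREBF1* or *MYLIP*. A match is a description of letters and not evidence of binding.

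Counts summed to between 64571681 and 103518036 per sample, and no pair of replicates agreed within sampling noise. *TRPV4*, the gene targeted by the hairpin, had 7, 1 and 13 counts in shTRPV4 cells, where a single count is below the floor of 3, and 24 to 64 counts in the samples of SC cells. Its log2 fold change in shTRPV4 cells against SC cells at 8 cP was −2.51 (SE 0.49, edgeR adjusted p = 0.00219). Epithelial and mesenchymal markers were both present, and within each set some were low. The keratins *KRT8* (981 to 1490 CPM, that is counts relative to each TMM-scaled library size), *KRT18* (285 to 350 CPM) and *KRT19* (481 to 796 CPM) and the mesenchymal *VIM* (754 to 1060 CPM) and *FN1* (720 to 1390 CPM) were high, and *EPCAM* stood at 16.9 to 19.4 CPM. The epithelial *CDH1* was nearly absent (3 to 12 counts), and the mesenchymal *CDH2* was low (0.405 to 0.947 CPM, 26 to 86 counts). The leukocyte marker *PTPRC* stood at 0.0636 to 0.176 CPM and the endothelial marker *PECAM1* at 1.98 to 6.22 CPM. The mitochondrial share of counts was 2.04 to 2.58% in SC cells at 0.77 cP, 2.23 to 2.44% in SC cells at 8 cP and 3.28 to 3.40% in shTRPV4 cells. The part of this share in the differences of shTRPV4 cells was not tested. In bulk RNA, fewer cells that use a gene and less of its RNA per cell cannot be told apart.

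At 8 cP, 7 of the 8 genes differed in SC cells from their level at 0.77 cP, 6 lower and 1, *SCAP*, higher. The background was 19.3% of the 18264 genes tested by edgeR's quasi-likelihood test at an adjusted p of 0.05, with 9.69% lower and 9.57% higher. The samples of these 7 genes did not overlap between the groups, against 19.0% of all genes lying wholly lower and 19.4% wholly higher. The median log2 fold change of the 8 genes was −0.52, and that of all genes tested was −0.01. Since earlier results were known when the genes were chosen, such values beside all genes are a description. The part of that choice in them was not tested. Without replicate 1 of SC cells at 0.77 cP, in which several of the genes stood highest, 4 of the 8 were called. *INSIG1*, *SREBF2*, *STARD4* and *MYLIP* were called in each of 16 other fits (other scalings, filters, DESeq2 and libraries left out), whereas the calls of *INSIG2*, *SCAP* and *SREBF1* were not.

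**Figure D1:**
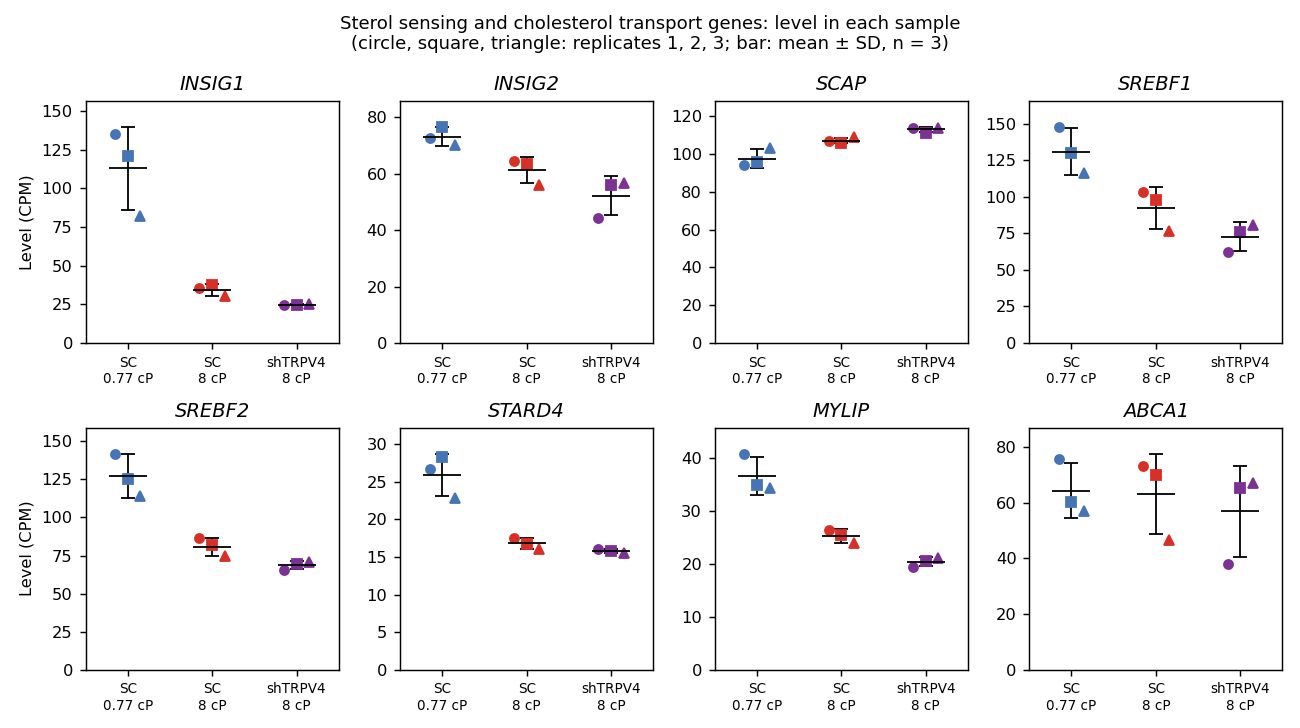
Level of each of the 8 genes in CPM (linear axis from 0) in the 9 samples, with 1 panel per gene, 1 point per sample, and the mean and SD of each group of 3. *INSIG1* fell from a mean of 113 to 34.4 and 24.8 CPM from SC cells at 0.77 cP to 8 cP and to shTRPV4 cells, while the groups of *ABCA1* overlapped.

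*INSIG1* and *INSIG2* encode the 2 retention proteins of the sensor. *INSIG1* (ENSG00000186480, chr7:155297776-155310235, plus strand, GRCh38) stood at 135, 121 and 82.4 CPM in the replicates 1 to 3 kept at 0.77 cP. In SC cells at 8 cP it stood at 35.6, 37.3 and 30.1 CPM, and in shTRPV4 cells at 24.7, 24.4 and 25.4 CPM. The 3 groups were fully apart, and the spread was widest at 0.77 cP, where replicate 3 was well below the others. At 8 cP the level in SC cells was 69.4% lower, a log2 fold change of −1.71 (SE 0.13, edgeR adjusted p = 3.4e-07). Only 95 of the 18264 genes tested had a lower log2 fold change. In shTRPV4 cells the level was a further 27.7% lower than in SC cells at the same viscosity (log2 fold change −0.47, SE 0.13, edgeR adjusted p = 0.0192). This call was lost when replicate 1 (adjusted p = 0.0647) or replicate 2 (0.0741) of SC cells at 8 cP, or replicate 2 of shTRPV4 cells (0.0596), was left out in edgeR. Against SC cells at 0.77 cP, shTRPV4 cells were 77.9% lower in *INSIG1* (log2 fold change −2.18, SE 0.13, edgeR adjusted p = 9.1e-09).

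*INSIG2* (ENSG00000125629, chr2:118088452-118110997, plus strand) was less widely spread. Its levels were 72.7, 76.7 and 70.2 CPM in SC cells at 0.77 cP, 64.7, 63.4 and 56.0 CPM in SC cells at 8 cP, and 44.2, 55.9 and 56.8 CPM in shTRPV4 cells. The SC groups did not overlap, whereas 2 of the shTRPV4 samples lay within a CPM of the lowest SC sample at 8 cP. *INSIG2* was 16.1% lower in SC cells at 8 cP than at 0.77 cP (log2 fold change −0.25, SE 0.080, edgeR adjusted p = 0.0372). It lost this call when any replicate of SC cells at 8 cP, or replicate 1 or 2 of SC cells at 0.77 cP, was left out (edgeR adjusted p up to 0.196). The log2 fold change in shTRPV4 cells against SC cells at 8 cP was −0.23 (95% interval −0.40 to −0.06, edgeR adjusted p = 0.0547), which missed the threshold. Against SC cells at 0.77 cP it was −0.49 (edgeR adjusted p = 0.00018).

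Since longer transcripts gather more reads, levels of the paired genes were compared as CPM per kilobase of exon. The ratio of *INSIG1* to *INSIG2* on this scale was 2.0, 1.70 and 1.27 in SC cells at 0.77 cP, 0.595, 0.637 and 0.583 in SC cells at 8 cP, and 0.603, 0.473 and 0.485 in shTRPV4 cells. *INSIG1* was thus the higher of the pair in each sample at 0.77 cP and the lower in each of the 6 samples at 8 cP. The means were 1.66 ± 0.369, 0.605 ± 0.0288 and 0.520 ± 0.0719 (SD, n = 3).

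*SCAP* (ENSG00000114650, chr3:47413681-47477126, minus strand), the escort of the SREBPs, went the other way. It stood at 94.1, 95.5 and 103 CPM in SC cells at 0.77 cP, at 107, 106 and 109 CPM in SC cells at 8 cP, and at 114, 111 and 114 CPM in shTRPV4 cells. The groups did not overlap, but the steps were small. The log2 fold change between the viscosities was 0.14 (SE 0.044, edgeR adjusted p = 0.0444). This call was lost in 10 of 16 other fits, including 6 of the 9 that left out 1 library (edgeR adjusted p up to 0.158). The 10 also included upper quartile scaling (edgeR adjusted p = 0.0539), no filter on low counts (0.073) and only the 6 samples of the comparison (0.0519). shTRPV4 cells differed from SC cells at 8 cP by 0.08 on the log2 scale (95% interval −0.02 to 0.17, edgeR adjusted p = 0.257). *SCAP* was higher in shTRPV4 cells than in SC cells at 0.77 cP by 0.21 on the log2 scale (SE 0.044, edgeR adjusted p = 0.00126).

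*SREBF2* and *SREBF1* encode the transcription factors that SCAP escorts. SREBP-2 acts mainly on sterol genes and SREBP-1 mainly on fatty acid genes. *SREBF2* (ENSG00000198911, chr22:41833105-41907306, plus strand) stood at 142, 125 and 114 CPM in SC cells at 0.77 cP, 86.4, 81.7 and 74.6 CPM in SC cells at 8 cP, and 65.5, 69.4 and 70.5 CPM in shTRPV4 cells. No samples overlapped between the 3 groups. The fall with viscosity was 36.2% (log2 fold change −0.65, SE 0.072, edgeR adjusted p = 3.1e-05). shTRPV4 cells were 15.4% below SC cells at 8 cP (log2 fold change −0.24, SE 0.072, edgeR adjusted p = 0.0278). The latter call was lost without replicate 1 (adjusted p = 0.13) or 2 (0.078) of SC cells at 8 cP, and without replicate 1 (0.0728) or 2 (0.0627) of shTRPV4 cells, all in edgeR.

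*SREBF1* (ENSG00000072310, chr17:17810399-17837002, minus strand) stood at 148, 130 and 116 CPM in SC cells at 0.77 cP, at 103, 97.6 and 76.3 CPM in SC cells at 8 cP, and at 61.9, 76.1 and 80.4 CPM in shTRPV4 cells. The SC groups were apart, while replicate 3 of SC cells at 8 cP lay below the highest shTRPV4 sample. *SREBF1* was 29.5% lower at 8 cP (log2 fold change −0.50, SE 0.11, edgeR adjusted p = 0.00629). Without replicate 1 of SC cells at 0.77 cP the adjusted p was 0.0527. In shTRPV4 cells it was 21.3% lower than in SC cells at 8 cP (log2 fold change −0.35, SE 0.11, edgeR adjusted p = 0.0386). That call depended on the library set, with edgeR adjusted p of 0.18 and 0.127 without replicates 1 and 2 of SC cells at 8 cP, 0.129 and 0.0647 without replicates 1 and 2 of shTRPV4 cells, and 0.05, no longer under the threshold, without replicate 2 of SC cells at 0.77 cP. DESeq2 gave an adjusted p of 0.115. Against SC cells at 0.77 cP, both genes were lower in shTRPV4 cells, *SREBF2* by 46.0% and *SREBF1* by 44.5% (edgeR adjusted p = 2.1e-07 and 2.3e-05). Per kilobase of exon the ratio of *SREBF1* to *SREBF2* was 1.01 ± 0.0126 at 0.77 cP, 1.11 ± 0.0981 in SC cells at 8 cP and 1.04 ± 0.0995 in shTRPV4 cells (SD, n = 3). The pair thus stayed near equal levels in each group. *SREBF1* shares 556 exon bases with *RAI1* and *SREBF2* 731 with *SREBF2-AS1*, each on the other strand, and the strand setting of the counting is not given in the sources used here.

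*STARD4* (ENSG00000164211, chr5:111496033-111512590, minus strand), a soluble carrier of cholesterol, stood at 26.7, 28.3 and 22.8 CPM in SC cells at 0.77 cP and at 17.5, 16.7 and 16.1 CPM in SC cells at 8 cP. shTRPV4 cells had 16.0, 15.8 and 15.5 CPM. The samples at 0.77 cP lay clear of the rest, whereas the lowest SC sample at 8 cP and the highest shTRPV4 sample almost met. *STARD4* fell by 35.1% with viscosity (log2 fold change −0.62, SE 0.073, edgeR adjusted p = 6e-05). A difference between shTRPV4 and SC cells at 8 cP was not shown (log2 fold change −0.09, 95% interval −0.25 to 0.07, edgeR adjusted p = 0.434). Against SC cells at 0.77 cP the log2 fold change in shTRPV4 cells was −0.72 (edgeR adjusted p = 2.4e-06). *STARD4* shares 124 exon bases with *STARD4-AS1* on the other strand.

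*MYLIP* (ENSG00000007944, chr6:16129086-16148248, plus strand) encodes a ubiquitin ligase, also called IDOL, that sends receptors of lipoprotein uptake to degradation. Its levels were 40.9, 34.9 and 34.4 CPM in SC cells at 0.77 cP, 26.5, 25.5 and 23.9 CPM in SC cells at 8 cP, and 19.5, 20.5 and 21.2 CPM in shTRPV4 cells. The 3 groups were apart, and replicates within the 8 cP groups lay close together. *MYLIP* was 31.1% lower at 8 cP in SC cells (log2 fold change −0.54, SE 0.069, edgeR adjusted p = 0.00014). In shTRPV4 cells it was 19.4% lower than in SC cells at 8 cP (log2 fold change −0.31, SE 0.070, edgeR adjusted p = 0.00525), and this call was kept with each library left out in turn (log2 fold change −0.35 to −0.28). Against SC cells at 0.77 cP the log2 fold change in shTRPV4 cells was −0.85 (edgeR adjusted p = 2.3e-07).

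*ABCA1* (ENSG00000165029, chr9:104781006-104928155, minus strand) encodes the transporter that passes cholesterol to lipid-poor apolipoprotein at the cell surface. It stood at 75.6, 60.3 and 57.0 CPM in SC cells at 0.77 cP, 73.0, 70.0 and 46.7 CPM in SC cells at 8 cP, and 38.1, 65.1 and 67.1 CPM in shTRPV4 cells. The groups overlapped throughout, and 1 sample in each 8 cP group lay far below its companions. No difference was shown between the viscosities (log2 fold change −0.02, 95% interval −0.41 to 0.36, edgeR adjusted p = 0.945) or between shTRPV4 and SC cells at 8 cP (−0.16, −0.54 to 0.23, edgeR adjusted p = 0.603). shTRPV4 cells differed from SC cells at 0.77 cP by −0.18 (−0.57 to 0.21, edgeR adjusted p = 0.461). These intervals are too wide to show that the level stayed the same. Leaving out the lowest sample of each 8 cP group, a choice made after seeing the data, gave 0.15 between the viscosities (edgeR adjusted p = 0.224) and −0.11 between shTRPV4 and SC cells at 8 cP (edgeR adjusted p = 0.45).

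In shTRPV4 cells against SC cells at 8 cP, 4 of the 8 genes were called, all lower, against 20.0% of all genes tested (11.0% lower, 9.02% higher). They were *INSIG1*, *SREBF1*, *SREBF2* and *MYLIP*. Wholly lower samples were seen for 4 genes, in which *STARD4* took the place of *SREBF1*, against 18.8% of all genes, and wholly higher samples for *SCAP*, against 17.6%. The median log2 fold change of the 8 genes was −0.24, and that of all genes was 0.00. The count of called genes was 1 without replicate 1 or 2 of SC cells at 8 cP or replicate 2 of shTRPV4 cells, and 2 without replicate 1 of shTRPV4 cells. *MYLIP* was the gene called in every one of these fits. In shTRPV4 cells against SC cells at 0.77 cP, 7 genes were called, 6 lower and *SCAP* higher, against a background of 42.4% (22.0% lower, 20.4% higher), and 7 were called whichever library was left out. Their samples did not overlap, against 26.1% of all genes wholly lower and 24.5% wholly higher, and the median log2 fold change of the 8 genes was −0.78 against −0.01. Levels fell from SC cells at 0.77 cP to those at 8 cP and again to shTRPV4 cells, with no overlap at either step, in 4 of the 8 genes (*INSIG1*, *SREBF2*, *STARD4* and *MYLIP*) and in 5.39% of all genes. For *STARD4* the second step was not called (log2 fold change −0.09, edgeR adjusted p = 0.434). The 3 comparisons share samples and are not independent of each other.

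**Figure D2:**
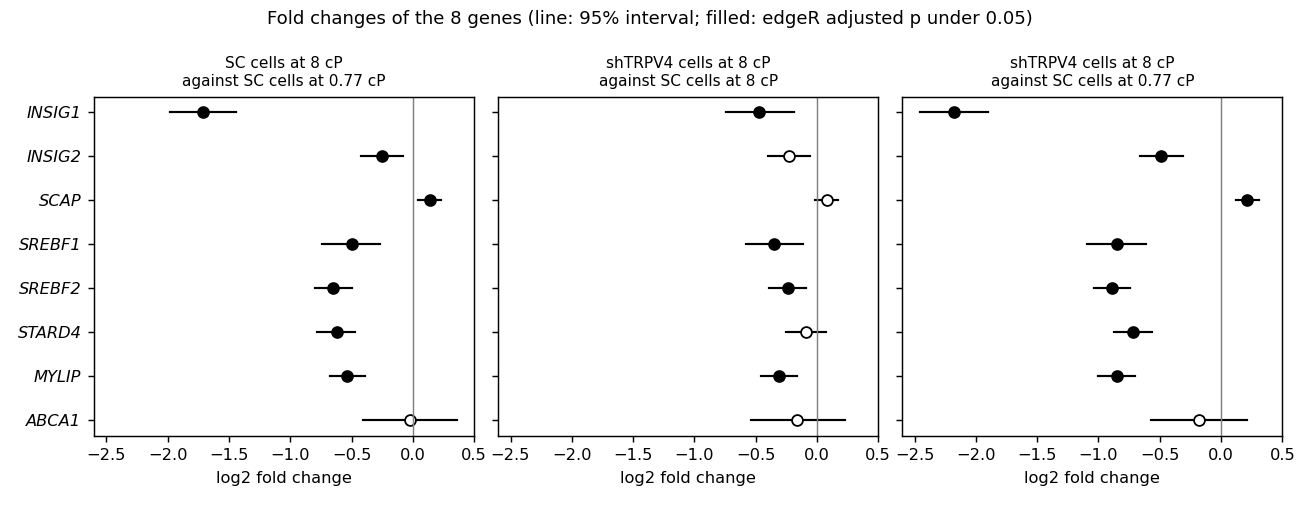
Log2 fold change of each of the 8 genes (horizontal axis) in the 3 comparisons, with bars for the 95% interval of edgeR's fit, filled points for genes with an adjusted p below 0.05 and open points for the others. *INSIG1* lies farthest to the left between the viscosities at −1.71, *SCAP* lies to the right of 0, and the intervals of *ABCA1* span 0.

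The balance of efflux against the limit on uptake was read within each sample as the ratio of *ABCA1* to *MYLIP* counts. It was 1.85, 1.73 and 1.66 in SC cells at 0.77 cP, 2.76, 2.74 and 1.95 in SC cells at 8 cP, and 1.96, 3.18 and 3.16 in shTRPV4 cells. Each sample at 8 cP lay above each sample at 0.77 cP, whereas the 2 groups at 8 cP overlapped. On the log2 scale the ratio was higher in SC cells at 8 cP than at 0.77 cP by 0.49 (two-sided exact permutation p = 0.10) and in shTRPV4 cells than in SC cells at 0.77 cP by 0.63 (exact permutation p = 0.10), and p = 0.10 is the smallest value that 3 against 3 samples can give. The log2 difference between shTRPV4 and SC cells at 8 cP was 0.14 (exact permutation p = 0.50), and it was −0.03 without replicate 3 of SC cells at 8 cP. *MYLIP*, the denominator, fell at each step, and for the numerator no difference was shown.

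**Figure D3:**
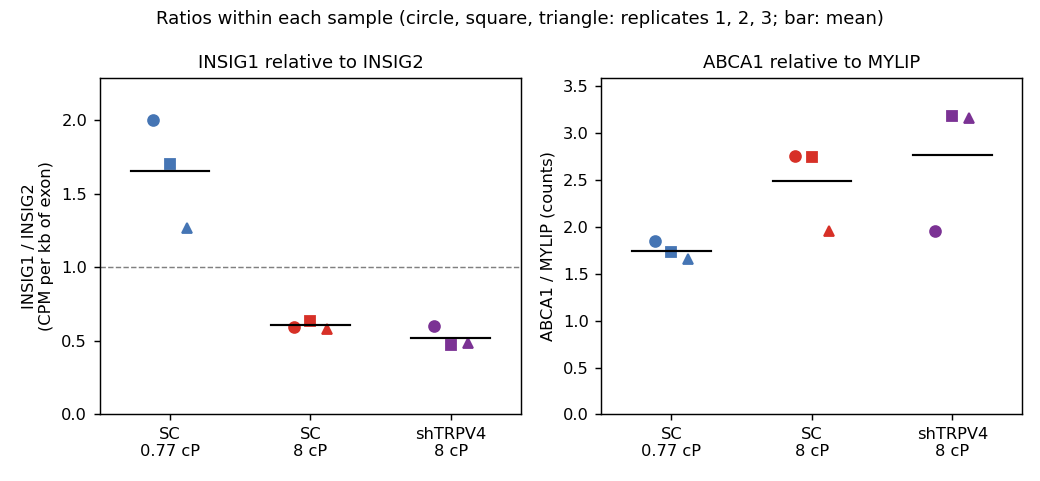
Ratio of *INSIG1* to *INSIG2* in CPM per kilobase of exon (left, dashed line at 1) and of *ABCA1* to *MYLIP* in counts (right) in each of the 9 samples by group, on linear axes from 0, with a bar at the mean of each group. The *INSIG1* to *INSIG2* ratio passes from a mean of 1.66 at 0.77 cP to 0.605 in SC cells and 0.520 in shTRPV4 cells at 8 cP, and the *ABCA1* to *MYLIP* ratio is lowest in the samples at 0.77 cP.

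Genes around the sensor, the uptake route and the efflux route were counted in 6 lists of 75 genes, of which 74 were tested. These lists, too, were chosen with earlier results of these data known. Between the viscosities in SC cells, 32 of the 74 were called, 9 higher and 23 lower, beside 19.3% of all genes tested (9.57% higher, 9.69% lower). Most of the lower calls came from sterol synthesis, in which 13 of 20 enzymes were lower and none higher (median log2 fold change −0.30). *IDI1*, which makes the isoprene unit dimethylallyl diphosphate, fell from 92.3 ± 11.6 to 51.9 ± 3.58 CPM (SD, n = 3; log2 fold change −0.83, edgeR adjusted p = 3.3e-06). *HMGCS1*, an enzyme of an early step, fell from 37.5 ± 5.17 to 22.6 ± 0.766 CPM (log2 fold change −0.73, edgeR adjusted p = 4.5e-05). In the list of SREBP processing and turnover, 4 of 12 genes were called and all 4 were higher (median 0.05). They included *ERLIN1*, an endoplasmic reticulum membrane protein that binds the SREBP complex (log2 fold change 0.24). The proteases that cut the SREBPs, *MBTPS1* and *MBTPS2*, had log2 fold changes of 0.00 and −0.02, neither called.

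The uptake and efflux lists held few calls at this step. Of 7 genes of lipoprotein uptake 2 were called, both lower (median −0.06). These were *DAB2*, an endocytic adaptor (log2 fold change −0.30, edgeR adjusted p = 0.00467), and *LRP1*, a large lipoprotein receptor (−0.24, edgeR adjusted p = 0.0241), whose samples overlapped between the groups and whose call was lost in 4 of 16 other fits. Of 12 LXR and efflux genes 2 were called, both lower (median −0.06). *NR1H3*, which encodes LXR-alpha, fell from 16.6 ± 1.86 to 12.2 ± 0.514 CPM (SD, n = 3; log2 fold change −0.44, edgeR adjusted p = 0.00212), and *RXRB*, which encodes a partner receptor of LXR, fell by 0.20 on the log2 scale (edgeR adjusted p = 0.00758, lost in 2 of 16 other fits). The shares called, 2 of 7 and 2 of 12, stand beside 19.3% of all genes. The other efflux transporters of the list, *ABCG1* and *ABCG4*, stood at 2.03 and 0.458 CPM at 0.77 cP and were not called.

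Of 12 genes of intracellular sterol transport, 1 was higher and 2 were lower (median −0.10), a share near the 19.3% of all genes called. *SOAT1*, which esterifies cholesterol for storage, rose from 106 ± 7.33 to 135 ± 7.75 CPM (SD, n = 3; log2 fold change 0.35, edgeR adjusted p = 0.00118). *GRAMD1A*, which moves cholesterol from the plasma membrane to the endoplasmic reticulum, fell by 0.26 on the log2 scale (edgeR adjusted p = 0.00313). Among fatty acid genes known as SREBP-1 targets, 8 of 11 tested were called, a larger share than the 19.3% of all genes, but 4 were higher and 4 lower (median −0.04). *SCD*, the stearoyl-CoA desaturase, fell from 327 ± 92.2 to 133 ± 30.3 CPM (log2 fold change −1.29, SE 0.19, edgeR adjusted p = 0.00058), and *FADS2*, another desaturase, fell by 0.55 (edgeR adjusted p = 0.00058).

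At 8 cP, shTRPV4 cells differed from SC cells in 21 of the 74 genes, 6 higher and 15 lower, beside 20.0% of all genes tested (9.02% higher, 11.0% lower). The count was 13 without replicate 1 of SC cells at 8 cP, 10 without replicate 2, and 13 without replicate 2 of shTRPV4 cells. Sterol synthesis gave 3 calls in 20 (1 higher, 2 lower, median −0.03), a share below that of all genes. *NSDHL*, a late-step enzyme, was higher by 0.21 on the log2 scale (edgeR adjusted p = 0.0061). In intracellular sterol transport 5 of 12 genes were called, all lower (median −0.11), including *OSBPL5* (log2 fold change −0.43, edgeR adjusted p = 0.00104) and *OSBP* (−0.27, edgeR adjusted p = 0.0012), which encode oxysterol-binding proteins. Lipoprotein uptake gave 3 calls in 7 that ran both ways (median −0.14). *VLDLR*, the receptor for very low density lipoprotein, was lower (−0.34, edgeR adjusted p = 0.00213), whereas *SCARB1*, the receptor for high density lipoprotein, was higher (0.34, edgeR adjusted p = 0.00734).

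LXR and efflux genes gave 3 calls in 12 between shTRPV4 and SC cells at 8 cP, 2 higher and 1 lower (median −0.03), a share near the 20.0% of all genes called. *RXRA* was lower by 0.27 (edgeR adjusted p = 0.0005), and *ABCG4* was higher by 1.24 on the log2 scale, from 0.499 ± 0.106 to 1.18 ± 0.262 CPM (SD, n = 3; edgeR adjusted p = 0.00146), at a level far below that of *ABCA1*. SREBP processing gave 4 calls in 12 (1 higher, 3 lower, median −0.06), with *UBE2G2*, a ubiquitin-conjugating enzyme of the endoplasmic reticulum, higher by 0.22 (edgeR adjusted p = 0.0148, lost in 2 of 16 other fits) and *RNF145*, a ubiquitin ligase, lower by 0.16 (edgeR adjusted p = 0.0219, lost in 5). The fatty acid list gave 3 calls in 11 (1 higher, 2 lower, median 0.04), with *GPAM*, which starts glycerolipid synthesis, higher by 0.23 and *ELOVL6*, a fatty acid elongase, lower by 0.15 (edgeR adjusted p = 0.0137 and 0.0174, each lost in 3 of 16 other fits). Within the fatty acid list the largest difference was that of *SCD*, named here after its values were seen. It stood at 133 ± 30.3 CPM in SC cells at 8 cP and at 84.2 ± 18.2 CPM in shTRPV4 cells (SD, n = 3; log2 fold change −0.66, edgeR adjusted p = 0.0239, lost in 4 of 16 other fits).

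Against SC cells at 0.77 cP, shTRPV4 cells differed in 47 of the 74 genes, 11 higher and 36 lower, beside 42.4% of all genes. Sterol synthesis gave 15 lower of 20 and none higher (median −0.33), including *IDI1* (log2 fold change −0.93) and *MVK*, the mevalonate kinase (−0.88). Intracellular sterol transport gave 9 of 12 (2 higher, 7 lower, median −0.15), with *OSBPL5* at −0.75 and *SOAT1* at 0.44. LXR and efflux genes gave 6 of 12 (2 higher, 4 lower, median −0.19), with *ABCG4* at 1.38 and *RXRB* at −0.22. *ABCG1* stood at −0.78 and was not called (edgeR adjusted p = 0.0677). Lipoprotein uptake gave 3 of 7 (1 higher, 2 lower, median −0.13), with *SCARB1* at 0.53 and *VLDLR* at −0.40. SREBP processing gave 6 of 12 (3 higher, 3 lower, median 0.03), with *UBE2G2* at 0.42 and *PAQR3*, which tethers the SREBP complex to the Golgi, at 0.50. Fatty acid genes gave 8 of 11 (3 higher, 5 lower, median 0.03), with *SCD* at −1.96 and *FADS2* at −0.78.

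**Figure D4:**
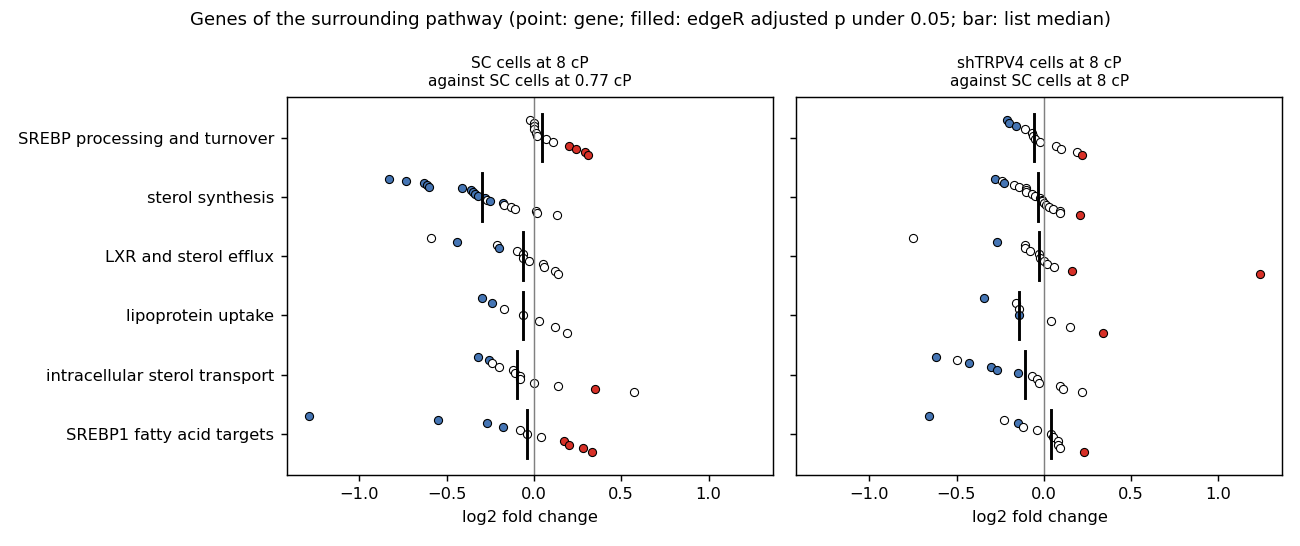
Log2 fold change (horizontal axis) of each tested gene of the 6 lists (rows) between the viscosities in SC cells (left) and between shTRPV4 and SC cells at 8 cP (right), 1 point per gene, blue for genes called lower and red for genes called higher by edgeR, open for the others, with a black bar at the median of each list. Sterol synthesis has the lowest median on the left (−0.30, 13 of 20 called lower), and its median on the right is −0.03.

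Several of the genes were low in the same sample of a group. In replicate 3 of SC cells at 8 cP, 7 of the 8 were lowest in their group, as were 36.5% of all genes tested, with log2 levels under the group mean by 0.41 for *ABCA1*, 0.26 for *SREBF1* and 0.18 for *INSIG1*, whereas *SCAP* was highest there. The same 7 genes were lowest in replicate 3 of SC cells at 0.77 cP, as were 35.1% of all genes, with *INSIG1* 0.42 under its group mean, and *SCAP* was again highest. In shTRPV4 cells, *ABCA1*, *SREBF1*, *INSIG2*, *SREBF2* and *MYLIP* were lowest in replicate 1, by 0.53, 0.22, 0.23, 0.06 and 0.06 below their means, as were 37.2% of all genes, while *INSIG1* and *STARD4* differed little among the samples. A fit without replicate 3 of SC cells at 8 cP and replicate 1 of shTRPV4 cells was added after these low values were seen. There the log2 fold change between the viscosities was −1.62 for *INSIG1*, −0.38 for *SREBF1* and −0.19 for *INSIG2*, all still called by edgeR, and 0.13 for *SCAP*, which was not. In the same fit shTRPV4 cells differed from SC cells at 8 cP by −0.55 in *INSIG1*, −0.36 in *SREBF1* and −0.19 in *INSIG2*, all called. With all samples *INSIG2* was not called in this comparison (edgeR adjusted p = 0.0547). Leaving out low samples of *SREBF1* and *INSIG2* narrows the spread of these genes, so the calls of this fit add no support.

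**Figure D5:**
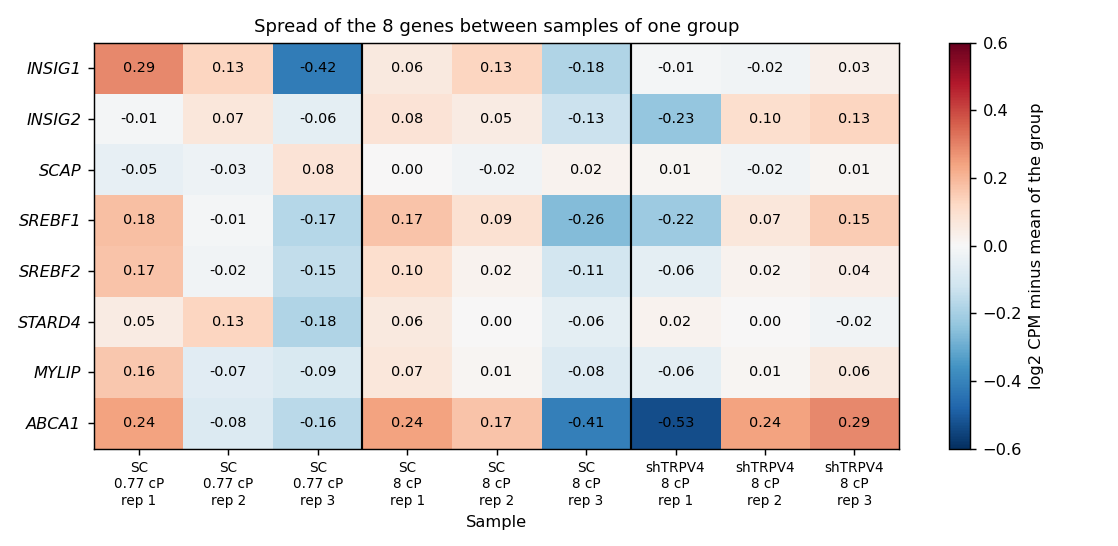
Heatmap of the log2 CPM of the 8 genes (rows) in the 9 samples (columns) as differences from the mean of the sample's own group, with the value printed in each cell. *ABCA1* is 0.41 below its group mean in replicate 3 of SC cells at 8 cP and 0.53 below in replicate 1 of shTRPV4 cells, with *SREBF1* and *INSIG2* low in both.

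Across the 9 samples, which fall into 3 groups and so are not 9 independent points, the log2 CPM of *INSIG1* correlated with that of *SREBF2* (Pearson r = 0.99) and *STARD4* (0.99), and inversely with that of *SCAP* (−0.97). The correlation of *ABCA1* with *INSIG1* was 0.33, and it was 0.67 with *INSIG2* and 0.64 with *SREBF1*. *POLL* (0.9969), a DNA repair polymerase, and *BHLHE40* (0.9956), a transcriptional repressor, were among the 3 tested genes most like *INSIG1* by this measure. Their log2 fold changes between the viscosities were −0.34 and −1.64, so that a like pattern went with unlike sizes. *SREBF2* (0.9913) and *UBXN6* (0.9898), a cofactor of the ATPase p97, were among the 3 genes most like *MYLIP*. For *ABCA1* they were *PTMAP5* (0.9676), a pseudogene that may share reads with its parent gene, and 2 genes without a symbol, ENSG00000255108 (0.9513) and ENSG00000235095 (0.9426). None of the last 3 was called in any comparison.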

How the data were processed

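RNA of 9 MDA-MB-231 samples, 3 in each of 3 groups, was measured on day 6. The authors mapped read pairs of 100 bp to GRCh38 with HISAT2 2.2.1 and deposited raw HTSeq 0.13.5 counts per gene of Ensembl release 104, without normalization. Of 60664 genes listed, 60463 had a symbol, and no row named no gene. Here the counts were analysed in R 4.3.3 with edgeR 4.0.16 (TMM scaling, filterByExpr, quasi-likelihood test, 1 coefficient per group over all 9 samples, Benjamini-Hochberg adjustment over 18264 genes, threshold 0.05). Log2 CPM used a prior count of 2. The common biological coefficient of variation was 0.0633, and the spread between samples rather than depth set the precision. SE and 95% intervals come from that fit.

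The alternatives were DESeq2 1.42.0, upper quartile scaling, other filters, the 6 samples of a comparison, a replicate block and each sample left out. Leaving out 2 samples together was added after seeing the data. The 8 genes and the lists were chosen with earlier results of these data known. Named were the 8 genes, *TRPV4*, the 2 genes of each list with the smallest adjusted p in each comparison, and the 3 genes most correlated with *INSIG1*, *MYLIP* and *ABCA1*. Some genes that this rule selects are not reported here. *MBTPS1*, *MBTPS2*, *ABCG1*, *ABCG4* at 0.77 cP and the genes of the closing section were named after their values were seen. Gene positions and exon lengths are from GENCODE release 44, and promoters from RefSeq, matched for all 8 genes. The scripts were tested on simulated data.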

Additional observations from a re-analysis of the deposited data

How the results depend on the processing

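When a log2 fold change of 1 or more in size was also required, 1, 0 and 1 of the 8 genes were called between the viscosities, between shTRPV4 and SC cells at 8 cP, and between shTRPV4 cells and SC cells at 0.77 cP, and 1, 1 and 2 of the listed pathway genes. Leaving out libraries gave 4 to 7, 1 to 5 and 7 to 7 of the 8 genes, 22 to 36, 10 to 25 and 41 to 49 pathway genes, and log2 differences in the *ABCA1* to *MYLIP* ratio of 0.41 to 0.66, −0.03 to 0.37 and 0.51 to 0.86, in the same order. Over the fits without a library, the log2 fold change of *ABCA1* ranged from −0.13 to 0.16, −0.33 to 0.06 and −0.32 to 0.04. It changed sign between the viscosities without replicate 1 of SC cells at 0.77 cP (0.12), without replicate 3 of SC cells at 8 cP (0.16) or without the lowest sample of both 8 cP groups (0.15). It also did so without replicate 1 of shTRPV4 cells, to 0.06 against SC cells at 8 cP and 0.04 against SC cells at 0.77 cP, and to 0.04 there without both samples. With no filter on low counts *ABCA1* was called in shTRPV4 cells against SC cells at 8 cP (edgeR adjusted p = 0.0415) and at 0.77 cP (0.00717), and *INSIG2* against SC cells at 8 cP (0.00066). DESeq2 also called the latter (adjusted p = 0.0342). The fit without a filter gave *INSIG1* an edgeR adjusted p of 3.59e-190 between the viscosities, against 3.36e-07 with the filter, at the same log2 fold change of −1.71. Calls made only without the filter therefore carry little weight. The causes were not tested. With the replicate number as a block, 7, 3 and 7 of the 8 genes and 32, 21 and 48 pathway genes were called, and *SREBF1* was lost between shTRPV4 and SC cells at 8 cP (edgeR adjusted p = 0.0618). Over all groups, same-numbered samples correlated at −0.0546 to 0.0904, and the best match had the same number in 7 of 18 cases. Between the SC groups, each sample correlated most with the one of its own number, though weakly (0.0455, 0.032 and 0.0904 for replicates 1, 2 and 3). Matches with shTRPV4 cells mostly did not follow the numbers. Whether the numbers pair the SC samples is thus not settled.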

Other observations

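Within the intracellular transport list, the 3 GRAMD1 genes, whose products carry cholesterol from the plasma membrane to the endoplasmic reticulum, were looked at together after their values had been seen. *GRAMD1A* fell in SC cells from 74.4 ± 3.68 CPM at 0.77 cP to 62.2 ± 2.52 CPM at 8 cP and stood at 59.4 ± 1.62 CPM in shTRPV4 cells (SD, n = 3). *GRAMD1B* stood at 3.28 ± 0.415, 2.78 ± 0.318 and 1.82 ± 0.276 CPM, and *GRAMD1C* at 11.1 ± 0.362, 9.66 ± 0.499 and 7.86 ± 0.596 CPM, in the same order of groups. Between the viscosities *GRAMD1A* was called (edgeR adjusted p = 0.00313), while *GRAMD1B* (−0.24, adjusted p = 0.226) and *GRAMD1C* (−0.20, adjusted p = 0.0726) missed the threshold in edgeR. In shTRPV4 cells against SC cells at 8 cP, *GRAMD1B* (−0.62, adjusted p = 0.00605) and *GRAMD1C* (−0.30, adjusted p = 0.0126) were lower in edgeR, and the log2 fold change of *GRAMD1A* was −0.07 (adjusted p = 0.39).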
